A study of Mus musculus with 10 samples.

Results

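The genes described here encode 10 interleukin receptor chains: Il2ra, Il2rb, Il2rg, Il7r, Il4ra, Il21r, Il12rb1, Il12rb2, Il18r1 and Il18rap. They were chosen by symbol from the 35275 genes of the count table, and all 10 had enough counts to be among the 14729 genes tested. The cells were 2/20 CTLs, a single line of wild-type (WT) mouse cytotoxic T lymphocytes that recognises the AH1 peptide. RNA was sequenced from the line at rest, after 4 h and 24 h with AH1 peptide, and after 4 h and 24 h beside 4T1 cells (co-culture), which derive from a mammary tumor of a BALB/c mouse. Each of the 5 groups has 2 libraries. All groups share the upkeep of the line, which each week received irradiated spleen cells of BALB/c mice with 10 units/mL of recombinant IL-2 and 1 µg/mL of the peptide, so the resting cells had also met antigen and IL-2 before. Cells were collected on magnetic beads carrying an antibody to CD45, a surface protein of blood cells, and no library of 4T1 cells alone was used here. Whether the 2 libraries of a group came from separate cultures is not given, so p-values measure the spread between these libraries, which may be technical.

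Interleukin receptors are assembled from chains that are often shared. The IL-2 receptor joins an alpha chain (Il2ra, CD25), which raises affinity, to a beta chain (Il2rb) and the common gamma chain (Il2rg), which carry the signal through the kinases JAK1 and JAK3 to STAT5, and IL-15 uses the same beta and gamma chains. The gamma chain also pairs with the specific chains for IL-7, IL-4 and IL-21, while IL-12 is bound by Il12rb1 with Il12rb2 and signals through STAT4, and IL-18 is bound by Il18r1 with the accessory chain Il18rap and signals through MyD88. In T cells antigen is known to induce the IL-2 receptor alpha chain and to lower the IL-7 receptor, which marks naive and memory cells.

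Upstream sequences are shown for 4 members: Il2ra and Il21r, which rose with peptide at 4 h, and Il7r and Il12rb2, which fell. Each is the 250 bases before the gene start from RefSeq on build GRCm38.p6, and 8 of the 10 members had such a window. Capitals mark matches, on either strand, to the STAT-type motif TTCNNNGAA or the NF-kB-type motif (GGG, any 5 bases, CC), and the AP-1-type motif TGANTCA was also searched.
Il2ra, chr2:11642542-11642791, plus strand: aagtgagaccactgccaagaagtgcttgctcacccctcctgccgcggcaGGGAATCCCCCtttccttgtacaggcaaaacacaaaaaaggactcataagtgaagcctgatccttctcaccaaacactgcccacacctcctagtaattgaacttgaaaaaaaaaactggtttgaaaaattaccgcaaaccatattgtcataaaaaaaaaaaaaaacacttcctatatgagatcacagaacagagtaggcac
Il21r, chr7:125603179-125603428, plus strand: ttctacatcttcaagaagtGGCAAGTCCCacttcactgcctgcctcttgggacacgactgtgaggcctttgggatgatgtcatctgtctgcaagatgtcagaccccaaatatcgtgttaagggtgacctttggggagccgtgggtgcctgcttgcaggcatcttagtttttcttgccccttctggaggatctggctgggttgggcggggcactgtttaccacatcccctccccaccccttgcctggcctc
Il7r, chr15:9529877-9530126, minus strand: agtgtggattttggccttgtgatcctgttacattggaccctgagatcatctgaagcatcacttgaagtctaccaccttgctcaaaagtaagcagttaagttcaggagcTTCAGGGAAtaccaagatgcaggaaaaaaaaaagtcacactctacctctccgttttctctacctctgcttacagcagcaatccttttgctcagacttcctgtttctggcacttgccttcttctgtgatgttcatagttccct
Il12rb2, chr6:67376189-67376438, minus strand: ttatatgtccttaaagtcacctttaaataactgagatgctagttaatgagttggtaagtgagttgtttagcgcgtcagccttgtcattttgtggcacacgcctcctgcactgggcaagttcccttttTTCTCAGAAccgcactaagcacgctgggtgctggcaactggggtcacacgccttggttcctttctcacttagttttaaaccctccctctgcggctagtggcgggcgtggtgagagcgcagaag

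The capitals of Il2ra cover 3 overlapping matches to the NF-kB-type motif, all within the same stretch. GGGAATCCCC, 201 bases before the gene start, matches on both strands, and GGAATCCCCC, 200 bases before it, on the minus strand. Il21r has 1 such match, 231 bases before its start. Il7r and Il12rb2 each have 1 match to the STAT-type motif, 142 and 123 bases before their starts, and none to the NF-kB-type motif. These 4 do not stand for all members. Il18rap, which also rose with peptide at 4 h, has neither motif. Il18r1, another that rose, has neither in 2 of its 3 windows and both in the third. Over 32851 mouse promoter windows of the same length, 45.8% held the NF-kB-type motif, 7.02% the STAT-type motif and 6.75% the AP-1-type motif. A match describes letters only, and the counts contain no measurement of binding.

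Library totals ran from 14104658 to 22910633 counts. Expression is given in CPM, that is scaled to a common library size, which the trimmed mean of M values (TMM) sets, and in CPM per kb of the deposited gene length when genes are compared with each other. Cd3e and Cd8a, markers of T cells and of CD8 T cells, stood at 440.3 ± 35.5 and 146 ± 3.47 CPM at rest (SD, n = 2). The 17 genes of a T cell identity list summed to 8625 to 8963 CPM at rest, 12988 to 13470 with peptide at 4 h and 4120 to 4435 at 24 h, but to 2783 to 2914 in co-culture at 4 h and 1261 to 1327 at 24 h. The 25 epithelial genes of a 4T1 list summed to at most 30.0 CPM without tumor cells and to 4763 to 4854 and 4176 to 4249 CPM in co-culture, with the keratin gene Krt8 at 1306 ± 71.1 and 931 ± 108 CPM. With peptide, 15 B cell genes summed to 499 to 592 CPM at 4 h and 244 to 501 at 24 h against 4.20 to 4.6 at rest. The B cell genes Ms4a1 and Cd79b had no count at rest. Sums of 17 myeloid genes were 218 to 221 CPM in resting cells and 35.6 to 251 in the other libraries, and those of 11 genes of CD4, regulatory and natural killer cells were 37.9 to 72.1 in all libraries. The 9 CD8 CTL genes, which include Ifng, reached 107371 to 137236 CPM after 4 h of peptide against 348 to 368 after 24 h of co-culture, and 17 stromal genes ranged from 1567 to 4586. The part of tumor or B cell RNA in the receptor values was not tested. A lower CPM in these bulk samples can reflect fewer T cells or less of the transcript in each, and the deposited counts cannot tell the difference.

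**Figure D1:**
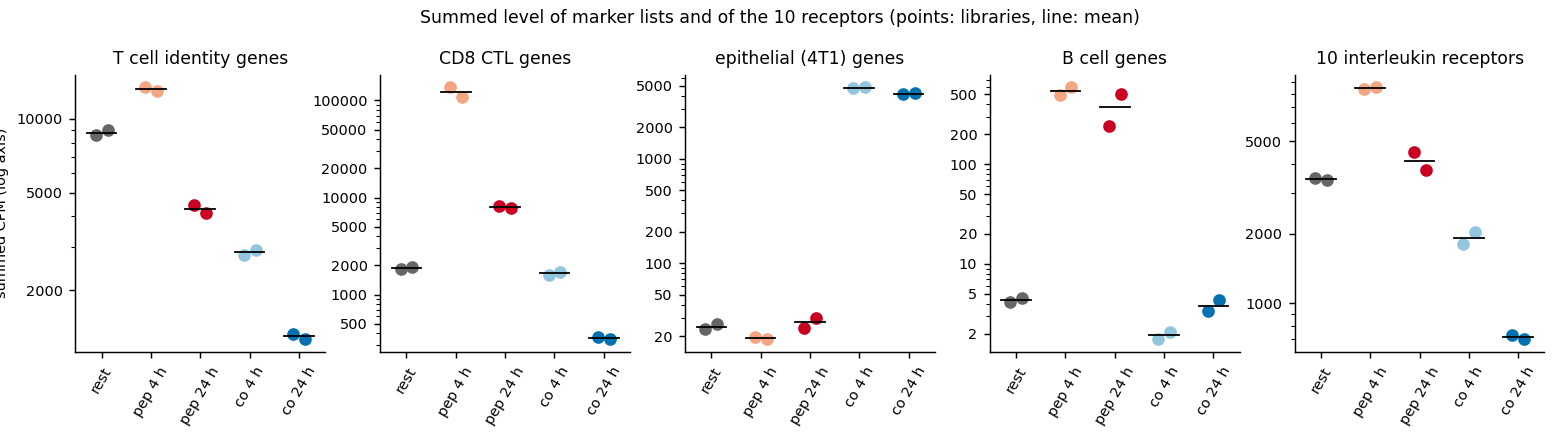
Summed CPM (log axis) of 4 marker lists and of the 10 interleukin receptor genes in each library, points being libraries and lines the mean of the 2 libraries of a group (pep, AH1 peptide; co, co-culture with 4T1 cells). Epithelial genes are above 4176 CPM in co-culture alone, B cell genes are above 244 CPM with peptide alone, and T cell identity genes are lowest in co-culture at 24 h.

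Each comparison was therefore fitted a second time with libraries scaled on the 16 tested T cell identity genes, called T cell scaling here. Relative to TMM this moved the median log2 change of all genes from -0.04 to -0.70 for peptide at 4 h against rest, from 0.02 to 0.89 at 24 h, from 0.05 to 1.57 for co-culture at 4 h and from 0.05 to 2.66 at 24 h. The 16 genes are not constant themselves: after this scaling 6 still rose and 7 fell with peptide at 4 h. Changes below are log2 values ± SE from edgeR's quasi-likelihood test with p-values adjusted by Benjamini and Hochberg over all 14729 genes, with a threshold of 0.05.

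With peptide at 4 h, 5 receptor genes rose and 3 fell, that is 8 of 10 where 59.5% of all genes passed, 28.8% higher and 30.7% lower. Those that rose were Il2ra, Il21r, Il18rap, Il2rb and Il18r1, and those that fell were Il7r, Il12rb2 and Il12rb1. With T cell scaling Il2ra and Il21r still rose and the same 3 fell. The calls for Il2rb, Il18r1 and Il18rap were lost, and Il2rg and Il4ra became lower. T cell scaling moves all changes of this comparison downward, so it could have reversed the rises but not the 3 falls. Under that scaling 61.0% of all genes passed, 15.9% higher and 45.1% lower. At 24 h all 10 passed, where 55.3% of all genes did (29.2% higher, 26.1% lower): Il2ra, Il12rb1, Il21r and Il2rb rose and the other 6 fell. Of these falls Il7r, Il18r1 and Il18rap also fell with T cell scaling, while Il4ra turned to a rise and Il12rb2 and Il2rg lost their calls. Under that scaling 61.4% of all genes passed at 24 h, 51.3% higher and 10.0% lower.

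In co-culture at 4 h, 2 genes rose (Il2ra and Il21r) and 7 fell, where 60.9% of all genes passed, 34.2% higher and 26.7% lower. At 24 h 1 rose (Il12rb1) and 9 fell, where 65.3% of all genes passed, 36.0% higher and 29.3% lower. With T cell scaling 4 rose at 4 h (Il2ra, Il21r, Il2rb and Il18rap) and 2 fell (Il7r and Il12rb2), and at 24 h 5 rose (Il12rb1, Il4ra, Il18rap, Il2rb and Il2ra), while the largest remaining difference below 0 was that of Il2rg (-0.38 ± 0.17, adjusted p = 0.0531). Under that scaling 74.9% of all genes passed at 4 h, 70.0% higher and 4.82% lower. At 24 h 82.8% passed, 81.3% higher and 1.47% lower. The receptors rose in a smaller share, but the shares of all genes come with the scaling itself. It raised the median change of all genes to 1.57 at 4 h and 2.66 at 24 h. The gap is therefore not read as a result about the receptors. The fall of the receptor genes in co-culture at 24 h is thus a fall in the libraries as scaled by TMM, in which T cell identity genes fell too: 14 of 16 tested, with a median of -2.71 against -2.27 for the receptors and 0.05 for all genes. The falls of Il7r and Il12rb2 at 4 h held under both scalings. The rises of Il2ra and Il21r at 4 h and of Il12rb1 at 24 h also passed under both. T cell scaling moves all changes of co-culture against rest upward, so it could not have reversed these rises.

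**Figure D2:**
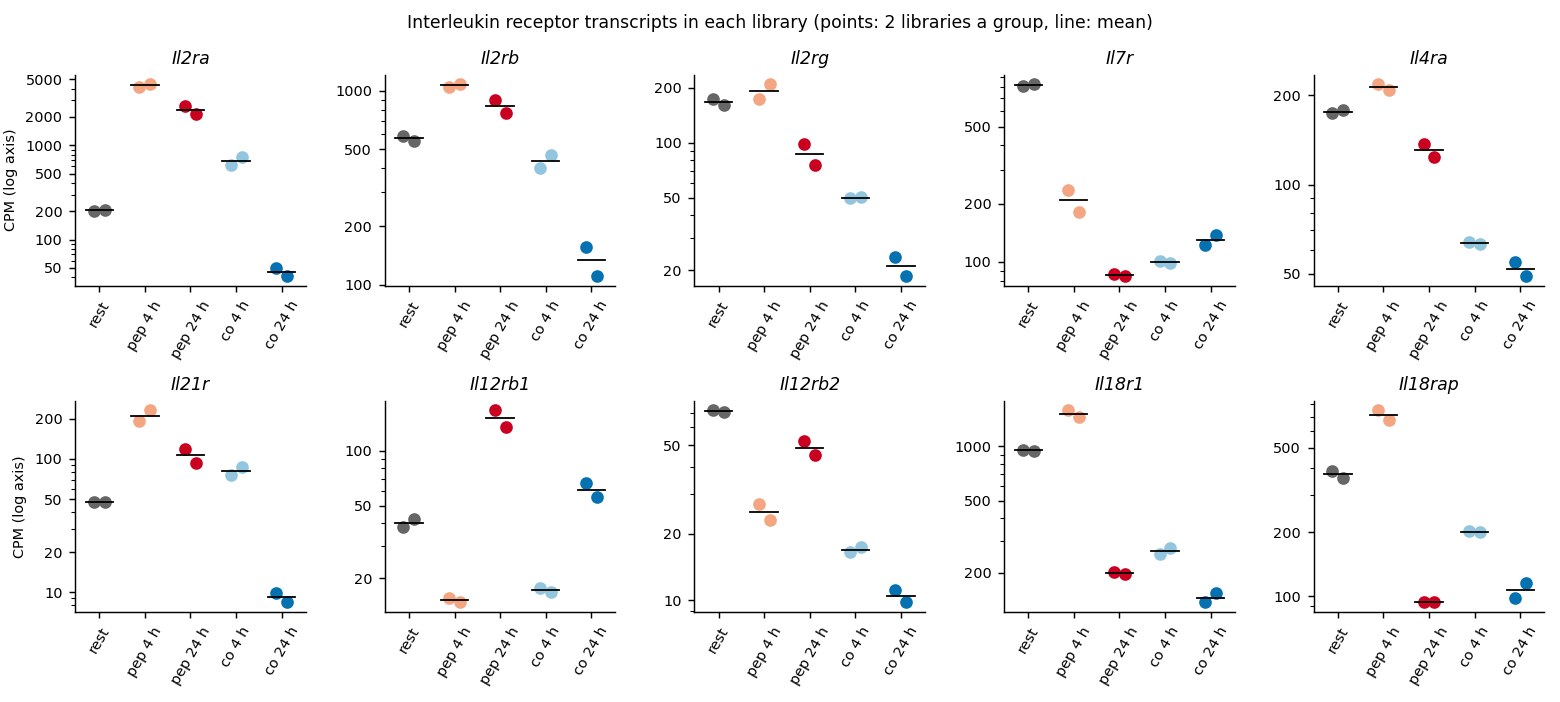
Level of each of the 10 receptor genes in each library (CPM, log axis), points being libraries and lines the mean of the 2 libraries of a group (pep, AH1 peptide; co, co-culture with 4T1 cells). Il2ra stands at 4172 and 4465 CPM with peptide at 4 h against 203 and 207 at rest, and Il7r is highest at rest in both libraries.

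**Figure D3:**
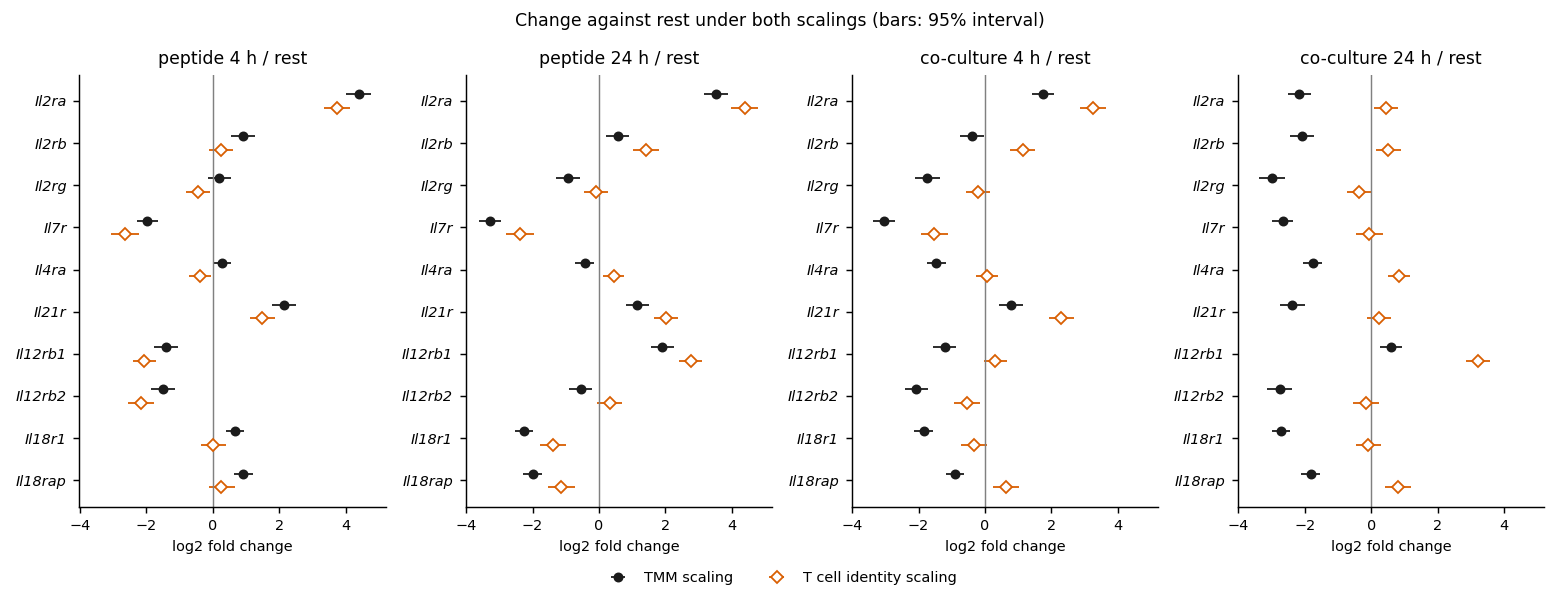
Log2 change of each gene against rest in the 4 activated groups, with filled circles for TMM scaling, open diamonds for T cell scaling and bars for the 95% interval. Il2ra, Il21r and Il12rb1 lie above 0 under both scalings with peptide at 24 h, the interval of Il7r lies below 0 under both in 3 of the 4 comparisons, and in co-culture at 24 h most open diamonds lie to the right of 0 or cross it.

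Il2ra, the IL-2 receptor alpha chain (ENSMUSG00000026770; build mm10, chromosome 2, 11642792 to 11693191, plus strand), had the widest range of the 10. It stood at 203 and 207 CPM at rest, 4172 and 4465 after 4 h of peptide, 2628 and 2133 after 24 h of peptide, 616 and 754 in co-culture at 4 h, and 50.1 and 41.2 in co-culture at 24 h. No groups overlapped, and the co-culture rise at 4 h had gone by 24 h. Against rest it rose 21.0-fold with peptide at 4 h (4.39 ± 0.17, adjusted p = 9.4e-10) and 11.6-fold at 24 h (3.54 ± 0.17, adjusted p = 4.5e-09). In co-culture it rose 3.34-fold at 4 h (1.74 ± 0.16, adjusted p = 5.8e-07) and at 24 h it fell by 2.17 ± 0.16 (adjusted p = 7.7e-08), which with T cell scaling becomes a rise of 0.44 ± 0.17 (adjusted p = 0.0256). It was lower in co-culture than with peptide at both times, by -2.66 ± 0.16 at 4 h and -5.70 ± 0.19 at 24 h, and by -0.48 ± 0.16 and -3.95 ± 0.19 with T cell scaling. All 4 of these differences passed, the least with an adjusted p of 0.0150.

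Il2rb, the beta chain that signals for IL-2 and IL-15 (ENSMUSG00000068227; chromosome 15, 78480553 to 78495066, minus strand), moved less. Its levels were 586 and 549 CPM at rest, 1049 and 1082 after 4 h of peptide, 900.0 and 769.9 after 24 h of peptide, 400.2 and 465 in co-culture at 4 h, and 156 and 111 in co-culture at 24 h. In CPM both peptide groups lay above rest and both co-culture groups below it. It rose with peptide at 4 h (0.91 ± 0.16, adjusted p = 3.2e-04), with an adjusted p of 0.222 for 0.25 ± 0.17 under T cell scaling and of 0.0509 for 0.41 ± 0.17 with library totals. At 24 h with peptide it was higher by 0.56 ± 0.16 (adjusted p = 0.0107), a call lost without resting library 2 (0.51, adjusted p = 0.0838) or without peptide 24 h library 1 (0.44, adjusted p = 0.0766). In co-culture at 4 h the change of -0.39 ± 0.16 did not pass (adjusted p = 0.0520) and was a rise of 1.13 ± 0.17 with T cell scaling (adjusted p = 4.9e-05). At 24 h it fell by 2.08 ± 0.17 (adjusted p = 1.8e-07), and rose by 0.52 ± 0.17 with T cell scaling.

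Il2rg, the common gamma chain (ENSMUSG00000031304; chromosome X, 101264378 to 101268255, minus strand), did not rise in any comparison with rest. It stood at 174 and 160.1 CPM at rest, 174 and 209 after 4 h of peptide, 98.8 and 75.1 after 24 h of peptide, 49.4 and 50.3 in co-culture at 4 h and 23.6 and 18.6 at 24 h. Rest and peptide at 4 h overlapped, with a difference of 0.20 and a 95% interval from -0.16 to 0.56, and -0.46 ± 0.16 with T cell scaling (adjusted p = 0.0277). The falls were 0.94 ± 0.17 with peptide at 24 h, 1.74 ± 0.17 in co-culture at 4 h and 2.98 ± 0.18 at 24 h, with adjusted p-values of 3.7e-04, 1.5e-06 and 1.4e-08. None of these 3 falls passed with T cell scaling, where they were -0.09, -0.22 and -0.38.

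Il7r, the IL-7 receptor alpha chain (ENSMUSG00000003882; chromosome 15, 9506161 to 9529876, minus strand), was highest at rest. Its levels were 814 and 830.1 CPM at rest, 236 and 182 after 4 h of peptide, 86.3 and 84.5 after 24 h of peptide, 100.4 and 98.0 in co-culture at 4 h, and 122 and 137 in co-culture at 24 h. Every activated library lay below both resting libraries. It fell by 1.98 ± 0.15 with peptide at 4 h (adjusted p = 1.1e-07), by 3.27 ± 0.15 at 24 h (adjusted p = 4.2e-09) and by 3.05 ± 0.15 in co-culture at 4 h (adjusted p = 3.2e-09), and with T cell scaling by 2.64, 2.39 and 1.53. In co-culture at 24 h it was lower by TMM (-2.67 ± 0.15, adjusted p = 6.5e-09), while T cell scaling gave -0.05 ± 0.18 with an adjusted p of 0.832. By TMM it was the one member called higher in co-culture than with peptide at 24 h (0.60 ± 0.14, adjusted p = 0.00308). With T cell scaling, which moves all changes of this comparison upward, it was higher by 2.35 ± 0.19. Under that scaling Il4ra, Il12rb1, Il18r1 and Il18rap were called higher too. At 4 h Il7r was lower in co-culture than with peptide by TMM (-1.07 ± 0.14) and higher with T cell scaling (1.11 ± 0.19).

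Il4ra, the IL-4 receptor alpha chain (ENSMUSG00000030748; chromosome 7, 125552282 to 125579472, plus strand), stayed within narrow bounds with peptide. It stood at 174 and 178 CPM at rest, 218 and 209 after 4 h of peptide, 137 and 124 after 24 h of peptide, 63.9 and 63.2 in co-culture at 4 h and 54.8 and 49.2 at 24 h. The groups did not overlap. The difference of 0.28 ± 0.13 with peptide at 4 h did not pass (adjusted p = 0.0743) and was -0.38 ± 0.15 with T cell scaling. At 24 h it fell by 0.43 ± 0.13 (adjusted p = 0.0108), a call lost without resting library 2 (-0.41, adjusted p = 0.0792) or peptide 24 h library 2 (-0.35, adjusted p = 0.124) and turned to 0.44 ± 0.15 by T cell scaling. In co-culture it fell by 1.47 ± 0.13 at 4 h (adjusted p = 4.9e-07) and 1.76 ± 0.13 at 24 h (adjusted p = 8.0e-08), whereas T cell scaling gave 0.05 ± 0.15 and 0.85 ± 0.15.

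Il21r, the IL-21 receptor chain whose gene lies near Il4ra (ENSMUSG00000030745; chromosome 7, 125603429 to 125633570, plus strand), followed Il2ra more closely than Il4ra. It stood at 47.4 and 47.8 CPM at rest, 191 and 231 after 4 h of peptide, 119 and 93.4 after 24 h of peptide, 75.6 and 87.3 in co-culture at 4 h and 9.92 and 8.43 at 24 h. Its order of groups was that of Il2ra, and no groups overlapped. It rose 4.44-fold with peptide at 4 h (2.15 ± 0.17, adjusted p = 1.9e-07), 2.23-fold at 24 h (1.16 ± 0.16, adjusted p = 5.4e-05) and 1.71-fold in co-culture at 4 h (0.78 ± 0.16, adjusted p = 0.00114). At 24 h of co-culture it fell by 2.37 ± 0.18 (adjusted p = 9.8e-08), with 0.23 ± 0.17 under T cell scaling (adjusted p = 0.225). It was lower in co-culture than with peptide at 24 h under both scalings, by -3.53 ± 0.18 and -1.78 ± 0.18, but at 4 h the sign differed (-1.37 ± 0.16 by TMM and 0.80 ± 0.16 by T cell scaling). Over the 10 libraries the correlation of log2 CPM was 0.96 between Il21r and Il2ra and 0.70 between Il21r and Il4ra, a description of libraries that share their scaling and T cell content.

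The chains of the IL-12 receptor both fell at 4 h by TMM and moved apart at 24 h. Il12rb1, which IL-23 also uses (ENSMUSG00000000791; chromosome 8, 70808449 to 70821424, plus strand), stood at 38.0 and 42.5 CPM at rest, 15.6 and 14.8 after 4 h of peptide, 166 and 135 after 24 h of peptide, 17.8 and 16.8 in co-culture at 4 h, and 66.3 and 55.7 in co-culture at 24 h. In CPM it was below rest at 4 h and above rest at 24 h with both sources of antigen. With peptide it fell by 1.40 ± 0.17 at 4 h (adjusted p = 8.9e-06) and rose 3.74-fold at 24 h (1.90 ± 0.16, adjusted p = 4.8e-07). In co-culture it fell by 1.22 ± 0.16 at 4 h (adjusted p = 2.4e-05), where T cell scaling gave 0.31 ± 0.16 with an adjusted p of 0.0961. At 24 h it rose by 0.60 ± 0.16 (adjusted p = 0.00440), a call lost without resting library 1 (0.50, adjusted p = 0.0503), and was at 3.21 ± 0.17 with T cell scaling (adjusted p = 1.0e-09). Between the sources at 4 h the difference of 0.19 had a 95% interval from -0.18 to 0.55 by TMM, and T cell scaling gave 2.37 ± 0.17. At 24 h it was -1.30 ± 0.16 by TMM and 0.45 ± 0.15 by T cell scaling.

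Il12rb2, the partner of Il12rb1 in the IL-12 receptor (ENSMUSG00000018341, chromosome 6, 67291318 to 67376188, minus strand), had its highest CPM at rest. It stood at 71.6 and 70.6 CPM at rest, 27.1 and 23 after 4 h of peptide, 52.1 and 45.3 after 24 h of peptide, 16.5 and 17.4 in co-culture at 4 h, and 11.2 and 9.82 in co-culture at 24 h. It fell with peptide at 4 h (by 1.51 ± 0.16, adjusted p = 3.8e-06) and in co-culture at 4 h (by 2.07 ± 0.17, adjusted p = 2.0e-07), and with T cell scaling by 2.17 and 0.54. With peptide at 24 h it was lower by 0.55 ± 0.16 (adjusted p = 0.00994), a call lost without resting library 2 (adjusted p = 0.0522) or peptide 24 h library 2 (adjusted p = 0.115) and 0.32 ± 0.18 under T cell scaling. After 24 h of co-culture it fell by 2.76 ± 0.17 (adjusted p = 1.6e-08), with -0.15 ± 0.18 under T cell scaling. At 24 h it was lower in co-culture than with peptide under both scalings, by -2.21 ± 0.17 and -0.47 ± 0.18. At 4 h that difference was -0.56 ± 0.17 by TMM (adjusted p = 0.0100) and 1.62 ± 0.18 by T cell scaling, and the TMM call was lost without peptide 4 h library 1 or either co-culture 4 h library, with adjusted p-values of 0.0508, 0.0863 and 0.0572.

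Il18r1, the chain that binds IL-18 (ENSMUSG00000026070; chromosome 1, 40465552 to 40500854, plus strand), had 958 and 947 CPM at rest, 1581 and 1456 after 4 h of peptide, 202 and 196 after 24 h of peptide, 255 and 272 in co-culture at 4 h, and 137 and 154 at 24 h. Il18rap, the accessory chain, whose gene lies near that of Il18r1 (ENSMUSG00000026068; chromosome 1, 40515362 to 40551705, plus strand), had 389 and 362 CPM at rest, 749.6 and 676 after 4 h of peptide, 93.8 and 93.6 after 24 h of peptide, 202 and 201 in co-culture at 4 h, and 98.3 and 115 at 24 h. In CPM both were highest with peptide at 4 h and far below rest at 24 h with either source. With peptide at 4 h they rose 1.59-fold and 1.90-fold (0.67 ± 0.12 and 0.92 ± 0.13, adjusted p = 3.5e-04 and 3.6e-05), calls that T cell scaling did not keep (0.01 and 0.26). The call of Il18r1 was also lost with library totals (0.17, adjusted p = 0.188). At 24 h Il18r1 and Il18rap fell by 2.26 ± 0.13 and 2.00 ± 0.13 (adjusted p = 1.7e-08 and 6.3e-08), and with T cell scaling by 1.39 ± 0.18 and 1.13 ± 0.19.

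In co-culture Il18r1 fell by 1.85 ± 0.13 at 4 h and 2.71 ± 0.13 at 24 h (adjusted p = 4.3e-08 and 2.1e-09), and with T cell scaling neither passed (-0.33 and -0.09). Il18rap fell by 0.90 ± 0.13 and 1.82 ± 0.13 (adjusted p = 4.6e-05 and 6.7e-08), and rose with T cell scaling (0.63 ± 0.18 and 0.80 ± 0.18). Between the sources at 24 h Il18r1 was lower in co-culture by -0.45 ± 0.12 (adjusted p = 0.00811), a call lost without peptide 24 h library 1 (-0.40, adjusted p = 0.0651) or co-culture 24 h library 1 (-0.35, adjusted p = 0.0501). With T cell scaling that difference was 1.30 ± 0.18. Il18rap differed by 0.19 with a 95% interval from -0.09 to 0.47, and by 1.93 ± 0.19 with T cell scaling. At 4 h both were lower in co-culture by TMM (-2.53 ± 0.13 and -1.82 ± 0.13) and neither difference passed with T cell scaling (-0.34 and 0.36).

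Counted over the 10 genes, co-culture at 4 h was lower than peptide at 4 h for 9, all but Il12rb1, where 61.4% of all genes passed, 35.1% higher and 26.3% lower. With T cell scaling 6 were higher and 1, Il2ra, was lower, where 86.9% of all genes passed, 84.2% higher and 2.72% lower. At 24 h 8 were lower and 1 was higher in co-culture, where 52.6% of all genes passed, 28.6% higher and 24.0% lower. T cell scaling split them into 5 higher (Il7r, Il4ra, Il12rb1, Il18r1 and Il18rap) and 4 lower (Il2ra, Il2rb, Il21r and Il12rb2). Under that scaling 83.2% of all genes passed, 78.9% higher and 4.33% lower. The lower level of Il2ra at both times and the lower levels of Il2rb, Il21r and Il12rb2 at 24 h therefore held under both scalings.

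A ratio of CPM per kb of 2 members within a library does not depend on how libraries are scaled, although RNA of other cells can still enter it. Il2ra to Il2rb was 0.220 ± 0.0130 at rest, 2.46 ± 0.0642 with peptide at 4 h, 1.73 ± 0.0646 with peptide at 24 h, 0.962 ± 0.0357 in co-culture at 4 h and 0.210 ± 0.0218 at 24 h (SD, n = 2). The alpha chain transcript thus exceeded the beta chain transcript per length in the peptide groups alone, and in co-culture at 24 h the ratio overlapped that at rest. The ratio of Il7r to Il2ra was 5.52 ± 0.00346 in resting cells, 0.0671 ± 0.0153 and 0.050 ± 0.00660 after 4 h and 24 h of peptide and 0.202 ± 0.0322 in co-culture at 4 h. In co-culture at 24 h it was 3.97 ± 0.867, nearer to rest than any other activated group.

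The ratio of Il12rb1 to Il12rb2 was 0.591 ± 0.0528 in resting cells, 0.636 ± 0.0513 after 4 h of peptide, where the libraries overlapped rest, 1.06 ± 0.0836 in co-culture at 4 h, 3.22 ± 0.153 with peptide at 24 h and 6.05 ± 0.187 in co-culture at 24 h. It was above 3 at 24 h with both sources. The ratio of Il18r1 to Il18rap varied least of the 4, from 2.98 ± 0.125 at rest to 2.51 ± 0.0381 and 2.50 ± 0.0517 with peptide, and was 1.54 ± 0.0732 and 1.61 ± 0.0467 in co-culture. Against the common gamma chain, Il2rb rose in ratio from 2.11 ± 0.0235 at rest to 6.0 ± 0.498 with peptide at 24 h, and Il21r from 0.183 ± 0.0116 to 1.05 ± 0.0936 in co-culture at 4 h before 0.280 ± 0.0148 at 24 h. With 2 libraries against 2 an exact permutation test cannot go below p = 0.333, so these ratios were not tested.

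**Figure D4:**
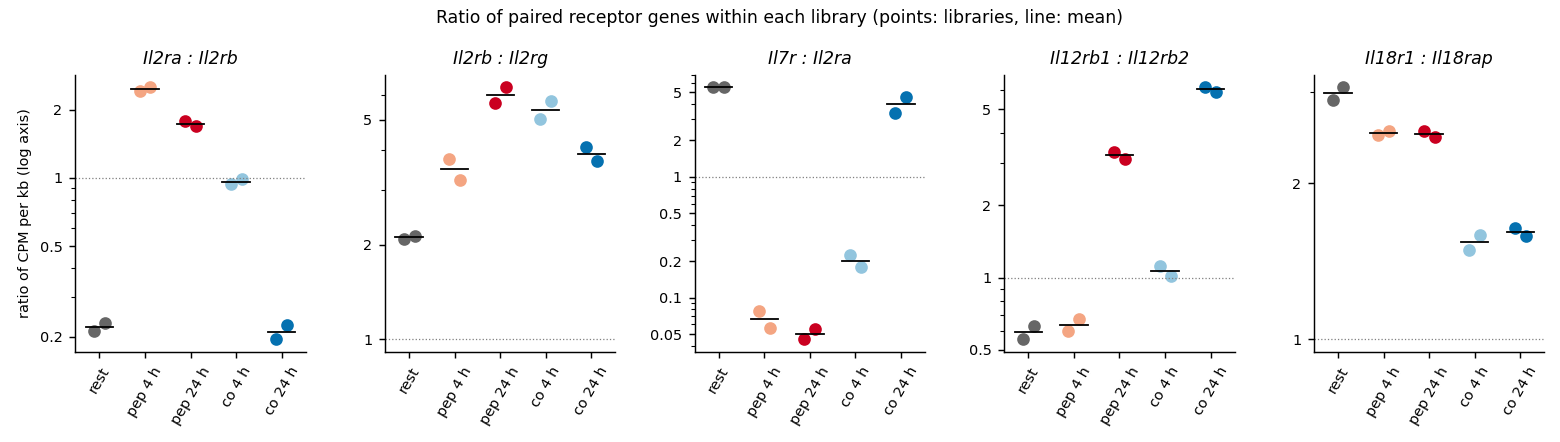
Ratio of CPM per kb of paired receptor genes within each library (log axis), points being libraries, lines the group mean and the dotted line a ratio of 1. Il2ra to Il2rb is 2.42 and 2.51 with peptide at 4 h but 0.195 and 0.226 in co-culture at 24 h, and Il12rb1 to Il12rb2 is 6.19 and 5.92 in co-culture at 24 h.

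Ranked by CPM per kb within a group, Il7r led at rest (256 ± 3.44), followed by Il18r1 (229 ± 1.81) and Il2rb (211 ± 9.76), and Il12rb1 was lowest (14 ± 1.12). No neighbours in the resting order overlapped. With peptide Il2ra led at 4 h (976 ± 46.7) and at 24 h (538 ± 79.2), followed both times by Il2rb (396 ± 8.63 and 310.2 ± 34.2). In co-culture at 4 h Il2rb (161 ± 17.0) and Il2ra (155 ± 22.1) led and overlapped. After 24 h of co-culture Il2rb (49.7 ± 11.9) and Il7r (40.4 ± 3.31) led and overlapped, and Il12rb2 was lowest (3.50 ± 0.319), overlapping Il21r (3.52 ± 0.404).

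From 4 h to 24 h with peptide, 2 of the 10 genes rose (Il12rb1 by 3.31 ± 0.17 and Il12rb2 by 0.96 ± 0.16) and 7 fell, where 52.9% of all genes passed, 28.2% higher and 24.6% lower. With T cell scaling 6 rose and 2 fell, where 72.4% of all genes passed, 69.0% higher and 3.46% lower. Il12rb1 (4.83 ± 0.18), Il12rb2 (2.48 ± 0.19), Il18r1 (-1.40 ± 0.18) and Il18rap (-1.39 ± 0.19) kept their direction and call. The scaling moves all changes of this comparison upward, so it could have reversed the falls but not the rises. In co-culture 1 rose (Il12rb1, 1.82 ± 0.16, adjusted p = 7.5e-06) and 7 fell, where 16.5% of all genes passed, 8.50% higher and 8.02% lower. The largest falls were those of Il2ra (3.91 ± 0.17, adjusted p = 2.3e-08) and Il21r (3.15 ± 0.18, adjusted p = 3.0e-07), which T cell scaling kept at 2.82 and 2.06. That of Il12rb2 (0.69 ± 0.17, adjusted p = 0.0134) was lost without either co-culture 4 h library or co-culture 24 h library 2, with adjusted p-values of 0.0703, 0.139 and 0.0964. T cell scaling gave 0.39 ± 0.18 for it (adjusted p = 0.0724). With T cell scaling 3 genes rose in co-culture over this time (Il12rb1, Il7r and Il4ra) and 3 fell (Il2ra, Il21r and Il2rb). Under that scaling 70.1% of all genes passed, 68.5% higher and 1.58% lower. Il7r, at 0.39 ± 0.14 by TMM (adjusted p = 0.0836), was then at 1.48 ± 0.19 (adjusted p = 4.3e-05). Il4ra, at -0.29 ± 0.13 by TMM (adjusted p = 0.151), was at 0.80 ± 0.15 (adjusted p = 5.6e-04). Il18r1 and Il18rap fell by TMM and were at 0.24 and 0.18 with T cell scaling, where neither passed.

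The change over time differed between the sources for 8 of the 10 genes by the interaction term, where 36.0% of all genes passed, 15.8% with a positive and 20.2% with a negative term. From 4 h to 24 h Il2ra changed by -3.05 ± 0.22 more in co-culture than with peptide, and Il21r by -2.16 ± 0.24, Il12rb2 by -1.65 ± 0.23, Il12rb1 by -1.49 ± 0.23 and Il2rb by -1.34 ± 0.23. In the other direction the term was 2.08 ± 0.18 for Il18r1, 2.01 ± 0.18 for Il18rap and 1.68 ± 0.20 for Il7r. The highest adjusted p of the 8 was 5.9e-04, for Il2rb. All 8 kept direction and call with T cell scaling, at -3.48, -2.58, -2.09, -1.92, -1.78, 1.64, 1.57 and 1.24 in the same order, where 35.5% of all genes passed. The scaling moves all terms downward together, with a median of -0.10 by TMM and -0.52 after it. It could not have reversed the negative terms, and the step was smaller than each positive term. The terms of Il2rg (-0.10, 95% interval -0.62 to 0.42) and Il4ra (0.42, interval 0.03 to 0.81, adjusted p = 0.0869) did not pass.

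**Figure D5:**
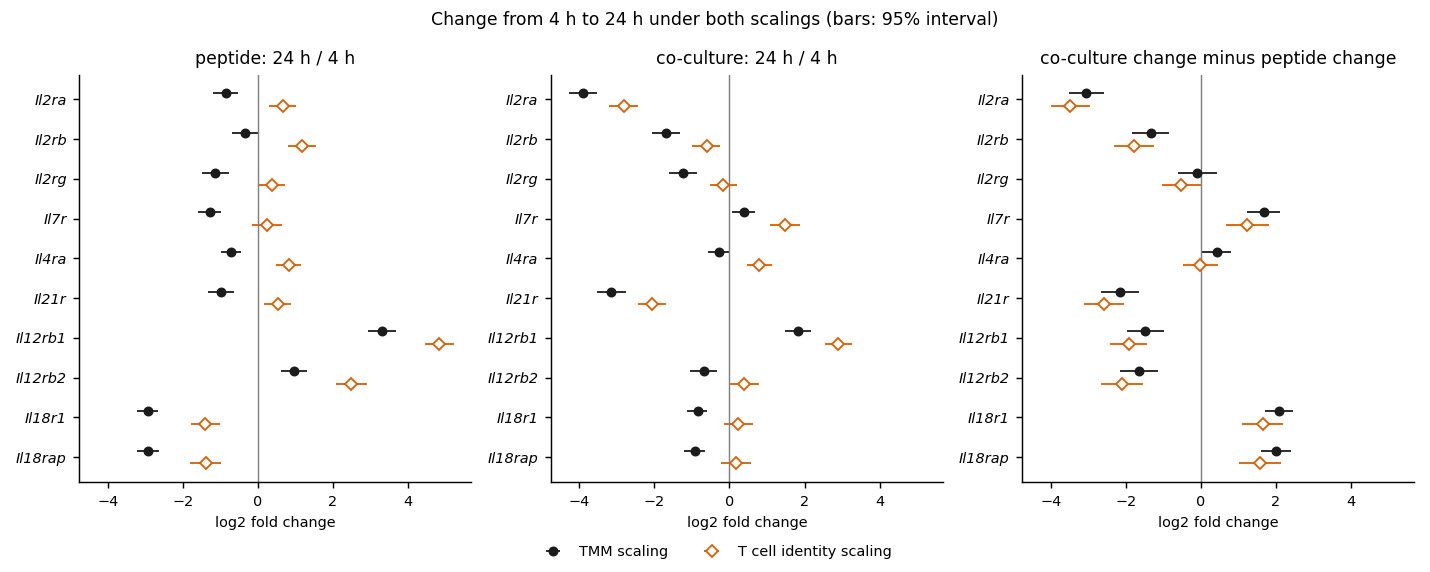
Log2 change from 4 h to 24 h with peptide, in co-culture, and the difference of the changes (interaction), with filled circles for TMM scaling, open diamonds for T cell scaling and bars for the 95% interval. In the right panel Il2ra lies near -3.05 and Il18r1 near 2.08, and both symbols of each of the 8 genes that passed lie on the same side of 0.

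Of the 10 kinases and STATs that the receptors use, all tested, 6 rose and 2 fell with peptide at 4 h, with a median of 1.11 against -0.04 for all genes (5 and 4 with T cell scaling). From 4 h to 24 h with peptide 7 of them fell, with a median of -1.43 (4 rose and 3 fell with T cell scaling). Stat5a, which carries the IL-2 signal, went from 31.3 to 1668 CPM (5.74 ± 0.20, adjusted p = 4.0e-10) and was at 81.4 CPM with peptide at 24 h, 49.5 in co-culture at 4 h and 12.8 at 24 h. Stat5b rose by 2.28 ± 0.15 and Jak2 by 1.80 ± 0.14, while Jak1 and Stat4, the transducer of IL-12, fell by 0.71 ± 0.13 and 0.85 ± 0.18, and these 5 directions held with T cell scaling. That scaling moves all changes of this comparison downward, so it could not have reversed the falls. Jak3, the kinase of the common gamma chain, had 338 CPM in resting cells against 281 after 4 h of peptide, a difference of -0.27 ± 0.20 that did not pass (adjusted p = 0.254) but a fall of 0.93 ± 0.19 with T cell scaling. In co-culture at 24 h 6 of the 10 fell, among them Stat4, Jak1, Jak3 and Stat5b, whereas 9 rose with T cell scaling, Jak1, Jak3 and Stat5b among them. T cell scaling put 70.0% of all genes higher in co-culture at 4 h and 81.3% at 24 h against rest. Counts of rises under it, here and for the lists that follow, stand against these shares. By TMM the shares of all genes higher and lower were 28.8% and 30.7% with peptide at 4 h. In co-culture they were 34.2% and 26.7% at 4 h and 36.0% and 29.3% at 24 h. From 4 h to 24 h with peptide they were 28.2% and 24.6% by TMM, and 69.0% and 3.46% with T cell scaling. Peptide at 4 h against rest gave 15.9% and 45.1% with T cell scaling.

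Of 12 known STAT5 target genes of T cells, 10 rose and 1 (Socs2) fell with peptide at 4 h, with a median of 2.31 (10 and 2 with T cell scaling). Gzmb, which encodes granzyme B, rose by 3.62 ± 0.13, the survival gene Bcl2l1 by 4.58 ± 0.21 and Cish, a feedback inhibitor of STAT5, by 3.90 ± 0.18, from 79.2 to 1184 CPM. In co-culture at 4 h 2 rose (Bcl2l1 and Cish) and 7 fell, which T cell scaling turned to 10 and 1. All 12 were lower in co-culture than with peptide at 4 h, and 11 at 24 h, against 26.3% and 24.0% of all genes. T cell scaling gave 3 higher and 6 lower at 4 h and 1 higher and 9 lower at 24 h. Under it 84.2% and 78.9% of all genes were higher, and 2.72% and 4.33% lower. Gzmb (-3.99 ± 0.14 and -6.16 ± 0.15) and Cish (-3.49 ± 0.18 and -3.42 ± 0.19) were lower at both times under both scalings.

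Among 15 feedback and phosphatase genes of JAK-STAT signalling, 7 rose and 4 fell with peptide at 4 h, and 8 rose and 5 fell in co-culture at 4 h (5 and 7, and 13 and 1, with T cell scaling). Socs1 and Socs3, which bind JAKs or receptors, rose in both: by 1.93 ± 0.17 and 3.14 ± 0.18 with peptide and by 1.78 ± 0.16 and 3.29 ± 0.18 in co-culture. In the chain below the IL-18 receptor, 3 of 11 rose with peptide at 4 h and 2 fell (1 and 6 with T cell scaling). Of all genes 28.8% rose and 30.7% fell (15.9% and 45.1% with T cell scaling). The adaptor gene Myd88 rose by 1.44 ± 0.19 and the ligase gene Traf6 by 1.00 ± 0.15, the latter at 0.34 with T cell scaling (adjusted p = 0.0811). After 24 h of co-culture 2 rose and 7 fell, whereas 10 of the 11 rose with T cell scaling, near the 81.3% of all genes.

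Transcripts of the ligands were low. Il2 had 0 and 0.755 CPM in the resting libraries, 8.92 and 6.57 after 4 h of peptide and at most 0.139 in any other library. Il21 had no count in any library. Il18 had 9.02 CPM in resting cells and between 2.60 and 7.80 in the activated groups. Tslp, a ligand that pairs with Il7r and Crlf2, had 52.7 CPM after 4 h and 112 CPM after 24 h of co-culture. Il23a, which encodes a chain of IL-23, had 59.5 and 46.2 CPM in these same groups, which hold tumor RNA. Il12b, which encodes the chain of IL-12 and IL-23 that binds Il12rb1, had at most 0.0395 CPM in any co-culture library. The ligand list also holds Il18bp, whose soluble product binds IL-18 and is no ligand. Of its 10 tested genes 5 rose and 2 fell with peptide at 4 h (4 and 2 with T cell scaling), and 5 rose and 2 fell in co-culture at 24 h, where 7 rose with T cell scaling. Il18bp is among the 5 that rose in both, by 0.69 ± 0.25 (0.03 ± 0.28 with T cell scaling, adjusted p = 0.942) and 3.06 ± 0.25.

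Of 29 other cytokine receptor chains tested, 14 rose and 9 fell with peptide at 4 h (8 and 11 with T cell scaling). In co-culture at 24 h 12 rose and 12 fell (21 and 2 with T cell scaling). Of all genes 28.8% rose and 30.7% fell with peptide at 4 h, and 36.0% rose and 29.3% fell in co-culture at 24 h. With T cell scaling these shares were 15.9% and 45.1%, and 81.3% and 1.47%. With peptide at 4 h Ifngr1, the ligand-binding chain for interferon gamma, fell by 3.43 ± 0.14, from 514 to 47.7 CPM, and Il27ra by 3.32 ± 0.15, from 417 to 41.8 CPM, while Il10ra rose by 2.10 ± 0.17, from 54.1 to 233 CPM. Il15ra, which presents IL-15 to Il2rb and Il2rg, had 23 CPM in resting cells against 29.3 after 4 h of peptide (0.35 ± 0.18, adjusted p = 0.116), and -0.31 ± 0.20 with T cell scaling (adjusted p = 0.200). In co-culture at 24 h the rises with the lowest p-values were those of Il13ra1, Ifngr2, Il17rc and Osmr. They stood at 210.1, 46.6, 41.2 and 20.1 CPM against at most 0.557 at rest. The co-culture libraries also hold tumor RNA, and its part in these values was not tested.

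The genes whose log2 CPM followed each receptor most closely over the 10 libraries were sought among 9719 protein-coding genes with a mean of at least 5 CPM. For Il2ra they were Bcat1 (Pearson r = 0.994), Ermn (0.986) and Zbtb32 (0.982). For Il7r they were Ugcg (0.995), Pdp1 (0.989) and Pnisr (0.987), and for Il12rb1 Cep76 (0.967), Fancg (0.965) and Lrwd1 (0.961). Il18r1 was followed by Lilrb4 (0.997), Rnf138 (0.995) and Slamf7 (0.994), and Il18rap by Senp6 (0.995), Tespa1 (0.995) and Csnk1g3 (0.984). Il2rb had Aebp2 (0.992), Nrros (0.982) and Irf4 (0.981) nearest, and Il21r had Ptpn6, Pdcd1lg2 and Aebp2 (each 0.981). For Il2rg the nearest were Rnf43 (0.992), Cul3 (0.991) and Tspyl2 (0.986), for Il4ra Maf (0.993), Klrc2 and Fbxw7 (each 0.985), and for Il12rb2 Tspan13 (0.990), Pelo and Coro1a (each 0.989). These are the highest of many coefficients over 10 libraries that fall into 5 groups and share scaling and T cell content.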

How the data were processed

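Read counts per gene were used as deposited by the authors, whole numbers without scaling. Gene lengths and positions are also those deposited. Per the submitters' processing notes, DESeq2 1.36 and mouse build mm10 were used. Per the labels' protocols, polyadenylated RNA went into stranded libraries. Aligner, counter, strand setting and annotation: not given in the sources used here, and counts of genes that overlap others depend on them.

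Counts of all 10 libraries were fitted with edgeR 4.0.16 in R 4.3.3 by a quasi-likelihood model with 1 mean per group, TMM scaling and filterByExpr. In all 9 contrasts were tested two-sided and p-values adjusted within each over 14729 genes. SE is the log2 change divided by the square root of F. T cell scaling set the size of each library by the median deviation of 16 T cell identity genes on the log2 scale. Other fits used DESeq2 size factors, library totals, DESeq2 1.42.0, no filter, a replicate block, only the groups compared, or left out 1 library. The fit was tested on simulated data. Libraries of a group were not duplicates, with a mean chi-square per gene between 6.94 and 47.7. The members and the 13 other lists were chosen with earlier results of these data known. From each pathway list genes were named by p-value, at most 4 per direction, besides a fixed set. Of 215 symbols in the lists 1 was not found. Values of some list genes are not reported here.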

Additional observations from a re-analysis of the deposited data

Results flagged for a closer look

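The change from 4 h to 24 h differed between peptide and co-culture for 8 receptor genes, by the interaction term of edgeR's quasi-likelihood test. Of all genes tested, 36.0% passed by the same term, 15.8% with a positive and 20.2% with a negative value. With T cell scaling 35.5% of all genes passed, 6.90% positive and 28.6% negative. A difference of this kind is therefore not particular to the receptor genes. The change in co-culture minus that with peptide, on the log2 scale, was -3.05 for Il2ra (adjusted p = 5.8e-07), -2.16 for Il21r (adjusted p = 1.9e-05) and -1.34 for Il2rb (adjusted p = 5.9e-04). For the IL-12 receptor chains it was -1.49 for Il12rb1 (adjusted p = 2.5e-04) and -1.65 for Il12rb2 (adjusted p = 1.3e-04). It was 2.08 for Il18r1 (adjusted p = 2.0e-06), 2.01 for Il18rap (adjusted p = 3.9e-06) and 1.68 for Il7r (adjusted p = 3.6e-05). T cell identity genes summed to 12988 to 13470 CPM with peptide at 4 h and 4120 to 4435 at 24 h, and to 2783 to 2914 and 1261 to 1327 in co-culture. Their part in the differences was not tested. All 8 kept direction and call under T cell scaling, which moved the median term of all genes from -0.10 to -0.52. That step is smaller than any of the 8 terms, so it could not have reversed them.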

How the results depend on the processing

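T cell scaling moved more results than any other setting tried: of 90 gene results, 40 kept direction and call, 34 changed sign, 13 lost a call and 3 gained one. The log2 changes that changed sign follow. For peptide at 4 h against rest these were Il2rg -0.46 and Il4ra -0.38. For peptide at 24 h they were Il4ra 0.44 and Il12rb2 0.32. For co-culture at 4 h against rest they were Il2rb 1.13, Il4ra 0.05, Il12rb1 0.31 and Il18rap 0.63. At 24 h of co-culture they were Il2ra 0.44, Il2rb 0.52, Il4ra 0.85, Il21r 0.23 and Il18rap 0.80. Between co-culture and peptide at 4 h they were Il2rb 0.88, Il2rg 0.24, Il7r 1.11, Il4ra 0.44, Il21r 0.80, Il12rb2 1.62 and Il18rap 0.36. Between the sources at 24 h they were Il4ra 0.42, Il12rb1 0.45 and Il18r1 1.30. From 4 h to 24 h with peptide they were Il2ra 0.66, Il2rb 1.17, Il2rg 0.37, Il7r 0.25, Il4ra 0.82 and Il21r 0.52. Over the same time in co-culture they were Il4ra 0.80, Il12rb2 0.39, Il18r1 0.24 and Il18rap 0.18. For the interaction the one gene was Il4ra -0.02. T cell scaling took the count of receptor genes called for co-culture at 24 h against rest from 10 to 5. For this comparison the count of all genes went from 9617 (65.3%) to 12189 (82.8%). In other comparisons the count of all genes went from 7742 to 12256 (sources at 24 h) and from 2433 to 10320 (co-culture times). The T cell factor of a library was 1.88 and 1.91 in resting cells, 2.09 and 2.14 after 4 h of peptide, 1.23 and 0.968 after 24 h, 0.691 and 0.718 in co-culture at 4 h and 0.349 and 0.301 at 24 h, and by construction it shifts all genes of a comparison together.

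Library totals changed the sign of 5: Il2rg (-0.30) and Il4ra (-0.22) for peptide at 4 h against rest, Il12rb2 (0.04) between the sources at 4 h, Il2rb (0.22) from 4 h to 24 h with peptide, and Il4ra (-0.18) for the interaction. A further 4 lost their calls with library totals: Il2rb (0.41) and Il18r1 (0.17) for peptide at 4 h against rest, and Il2ra (-0.29) and Il4ra (-0.14) from 4 h to 24 h with peptide. Under this setting 31.0% of the genes called for peptide at 4 h were higher, against 48.4% by TMM, and 79.6% against 57.2% between the sources at 4 h. From 4 h to 24 h with peptide the share was 77.5% against 53.4%, and for the interaction 16% against 43.9%. T cell scaling gave shares of 26.0%, 83.6%, 93.6% and 98.2% for the 4 activated groups against rest. The interaction of Il2rg, which did not pass by TMM, passed with library totals (-0.69, adjusted p = 0.0471). It turned to 0.05, 0.11 and 0.06 without peptide 4 h library 1, peptide 24 h library 1 and co-culture 24 h library 2, and the cause was not tested. Leaving out 1 library gave 848 to 2785 genes called between the co-culture times.

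DESeq2 size factors, the DESeq2 test, no filter and a fit of only the groups compared changed no sign and lost no call, and gave 3, 6, 2 and 2 calls more. The replicate numbers did not pair libraries: deviations of the same number correlated from -0.16 to 0.08. With the replicate block all 90 results kept direction and call, and counts of all genes were 8427, 7737, 8590 and 9263 for the 4 activated groups against rest.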
